A study of Mus musculus with 6 samples.

Results

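The genes described here are p53, its inhibitors and targets, the BCL2 family and the caspases that carry out programmed cell death. These 34 genes were chosen by name, with earlier results of these data known. Of these, 31 had a row of their own in the deposited table, 1 transcript cluster each, out of 19505 named genes and 22206 transcript clusters. Trp53, Bax and Gdf15 had no row under their symbols and were not analysed here. The members were read in Müllerian ducts, the embryonic tubes that form the oviducts, uterus and upper vagina, at E17.5, a late embryonic stage. Ducts of 3 control embryos carried floxed alleles of both Lats1 and Lats2 (Lats1f/f,Lats2f/f) and no Cre. Those of 3 mutant embryos carried the same alleles with Cre recombinase at 1 copy of the Amhr2 locus (Lats1f/f,Lats2f/f,Amhr2cre/+). Amhr2 is expressed in the mesenchyme around the duct, so other cells of the dissected tissue need not have recombined. Cre, at 1 copy of Amhr2, was present in the mutant group only. Its own effects, those of the altered Amhr2 copy and those of the recombined alleles cannot be told apart. Each sample was 1 array, and the labels call the 3 per genotype biological replicates.

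p53 is a transcription factor that is kept low by MDM2 and MDM4 and accumulates after DNA damage and other stress. It induces genes of growth arrest and repair, its own inhibitor Mdm2, and genes of cell death. In the mitochondrial death pathway, BAX and BAK open the outer membrane, BCL2 and its pro-survival relatives hold them in check, and BH3-only proteins relieve that check. Cytochrome c then joins APAF1 and caspase 9 in the apoptosome, which activates the caspases that dismantle the cell. LATS1 and LATS2 are kinases of the Hippo pathway that restrain the TEAD coactivators YAP and TAZ, and LATS2 has also been described to bind MDM2.

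Promoter sequences are shown for 5 members that held a match before the start and had an unadjusted limma p under 0.05 between the genotypes, adjusted values standing with the results. They are the 250 bases before the annotated start, from RefSeq on GRCm38.p6, printed 5′ to 3′ on the gene's strand. Capitals mark the consensus p53 half-site, of 10 bases, in the first 3 and the TEAD core GGAATG, or CATTCC on the other strand, in the last 2. The first 3 were chosen for holding a half-site. Of these, Ccng1 and Mdm2 had higher signals in mutant ducts and Sesn1 had lower ones, and only Ccng1 had a limma adjusted p under 0.05. No half-site was found in the window of Phlda3, the other member that passed.
Ccng1, chr11:40755287-40755536, minus strand: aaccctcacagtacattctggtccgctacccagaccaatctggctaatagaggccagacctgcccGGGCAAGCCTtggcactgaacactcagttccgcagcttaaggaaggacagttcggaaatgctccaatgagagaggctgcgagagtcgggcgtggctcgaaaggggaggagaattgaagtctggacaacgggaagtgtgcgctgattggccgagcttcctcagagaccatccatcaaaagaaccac
Mdm2, chr10:117710759-117711008, minus strand: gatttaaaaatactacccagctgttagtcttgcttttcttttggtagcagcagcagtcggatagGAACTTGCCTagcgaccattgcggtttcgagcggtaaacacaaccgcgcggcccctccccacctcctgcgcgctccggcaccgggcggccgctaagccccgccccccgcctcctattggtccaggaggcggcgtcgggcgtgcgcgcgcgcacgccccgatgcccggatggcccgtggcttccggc
Sesn1, the second of its annotated starts, chr10:41887189-41887438, plus strand: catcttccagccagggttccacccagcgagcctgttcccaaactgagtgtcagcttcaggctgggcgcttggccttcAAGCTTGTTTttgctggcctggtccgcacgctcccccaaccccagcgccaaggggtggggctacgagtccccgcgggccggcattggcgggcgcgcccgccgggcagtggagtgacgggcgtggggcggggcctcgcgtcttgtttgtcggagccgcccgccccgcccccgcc
Eda2r, chrX:97377210-97377459, minus strand: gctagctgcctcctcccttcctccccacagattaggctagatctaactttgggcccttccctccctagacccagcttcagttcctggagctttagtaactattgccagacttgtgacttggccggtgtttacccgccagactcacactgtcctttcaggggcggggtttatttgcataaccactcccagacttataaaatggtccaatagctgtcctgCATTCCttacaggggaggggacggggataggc
Bcl2l1, 1 of 3 annotated starts, chr2:152831729-152831978, minus strand: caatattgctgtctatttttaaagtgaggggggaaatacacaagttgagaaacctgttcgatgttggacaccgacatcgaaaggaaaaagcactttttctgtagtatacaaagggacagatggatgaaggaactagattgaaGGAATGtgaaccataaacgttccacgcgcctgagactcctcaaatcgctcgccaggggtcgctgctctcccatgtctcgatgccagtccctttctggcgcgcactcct

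Both motifs were searched on both strands of windows that reach from 250 bases before to 50 after each start. Of the 31 measured members, 26 had a window in the table. The half-site was in those of 5 members (19.2%), Mdm2, Ccng1, Sesn1, Aen and Bmf, and in 9.55% of all 27025 genes with a window. Its first base lay 185 bases before the start in Ccng1 and 186 in Mdm2. The TEAD core was also in 5, Phlda3, Eda2r, Bcl2l1, Mcl1 and Hrk, against 16.6% of all genes. A gene could have several windows, 39 for the 26 members and 32851 for the 27025 genes. The members had more windows per gene, so the shares of genes are not on an equal footing. Of all windows, 8.36% held the half-site and 14.7% the TEAD core. These counts describe letters only, and the half-site was found in genes with higher, lower or overlapping signals in mutant ducts.

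Some facts of the arrays bear on all values. Signals are log2 values, the arrays had medians between 6.87 and 6.95, and the median of an array's antigenomic background probes was between 5.35 and 5.88. A gene under that level on every array of a group is called below background, and the size of a difference from such a signal has little precision. Negative-control rows were brighter than that, with medians between 7.09 and 7.41. Lats1 lay between 12.13 and 12.51 in control and between 11.12 and 11.77 in mutant ducts (limma adjusted p = 0.0958), and Lats2 between 11.17 and 11.58 and between 11.32 and 11.95, with groups that overlapped (limma adjusted p = 0.684). Neither value checks the deletion, since the position of the probes is unknown here. Amhr2, whose locus carries Cre, lay between 10.51 and 10.88 in control and between 6.54 and 7.52 in mutant ducts. Of 7 Müllerian mesenchyme markers, Amhr2 among them, 1 fell (Amhr2) and none rose, and 6 had an unadjusted limma p under 0.05, 5 of them lower in mutant ducts. The median log2 difference of these markers was -0.71, and their mean level was between 11.69 and 11.98 in control and between 10.83 and 11.30 in mutant ducts. Their part in the p53 target signals was not tested. Control 3 stood apart on the second principal component (19.6% of the variance), with urothelial and smooth muscle transcripts high. In whole tissue, fewer cells of a type and less RNA per cell cannot be told apart.

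Mutant and control ducts were compared to see which genes differ when Lats1 and Lats2 are targeted. Among the members, the p53 targets Ccng1 and Phlda3 rose and none fell. No member of the mitochondrial death pathway passed, and their differences had either sign, from -0.51 for Bcl2 to 0.59 for Bcl2l1. Of the 8 BH3-only genes, 3 were below background in both groups. The 2 called genes were 6.45% of the 31 measured, where 3.26% of all transcript clusters passed, 2.59% as rises and 0.666% as falls. At an unadjusted limma p under 0.05 there were 12 members, 8 higher and 4 lower in mutant ducts, or 38.7% against 15.3% of all clusters. The arrays of the 2 groups did not overlap for 9 members that were higher in mutant ducts and 4 that were lower, where 10.9% and 10.2% of all clusters were so. The median log2 difference of the members was 0.24, beside -0.01 over all clusters, and 20 of the 31 were higher on average. Because the members were chosen with earlier results of these data known, these shares describe the set and do not test it. Members were brighter than most rows, with a median signal of 8.66 against 6.90, and their median SD within the control group was much like that of all rows (0.21 in each).

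**Figure D1:**
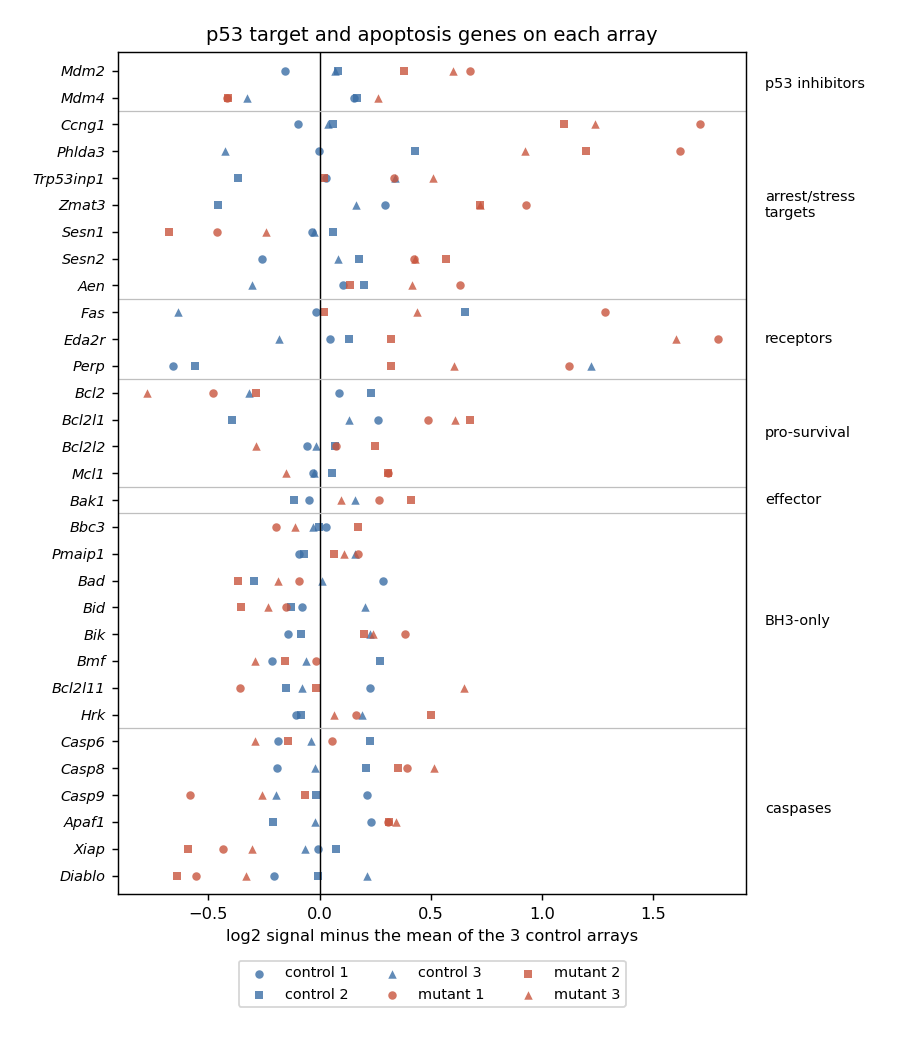
Log2 signal of each of the 31 members on each array (x axis), as the difference from the mean of the 3 control arrays, with genes on the y axis ordered by role. Control arrays are blue and mutant arrays red. Ccng1, Phlda3 and Eda2r reach furthest to the right in mutant ducts, and the BH3-only genes scatter around 0 in both groups.

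The inhibitors of p53 came first in the order of roles. Mdm2, the ubiquitin ligase that p53 itself induces, stood at 11.97, 12.20 and 12.19 on the control arrays and at 12.80, 12.50 and 12.72 on the mutant arrays. Every mutant array lay above every control array. The log2 difference was 0.55 ± 0.17 (SE), with a 95% interval from 0.17 to 0.93, and did not pass (limma adjusted p = 0.143). Mdm4, a related inhibitor that binds p53, lay between 12.44 and 12.93 in control and between 12.35 and 13.03 in mutant ducts. Its groups overlapped, with an interval from -0.72 to 0.34.

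Ccng1, which encodes cyclin G1 and is a classical p53 target, had the smallest p among the members. Its control arrays were close together at 12.39, 12.55 and 12.53, and its mutant arrays were at 14.20, 13.59 and 13.73. The mutant arrays were all at least a full log2 unit brighter than any control array. The rise was 2.55-fold, a log2 fold change of 1.35 ± 0.20 (SE, n = 3 against 3) with a limma adjusted p of 0.00588, rank 225 of all clusters by p. With any 1 of the 6 arrays omitted it still passed, at adjusted p between 0.0107 and 0.0322.

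Phlda3, an inhibitor of AKT signalling, was at 4.74, 5.17 and 4.32 in control ducts, below background on every array, and at 6.37, 5.94 and 5.67 in mutant ducts. Mutant 3 was below the background of its own array. The rise of 1.25 ± 0.26 passed (limma adjusted p = 0.0318), but held in only 2 of 6 fits with an array omitted. The adjusted p was 0.110 without control 1, 0.0735 without control 3, 0.117 without mutant 1 and 0.0904 without mutant 2. All 6 values also lay below the median of the negative-control rows.

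**Figure D2:**
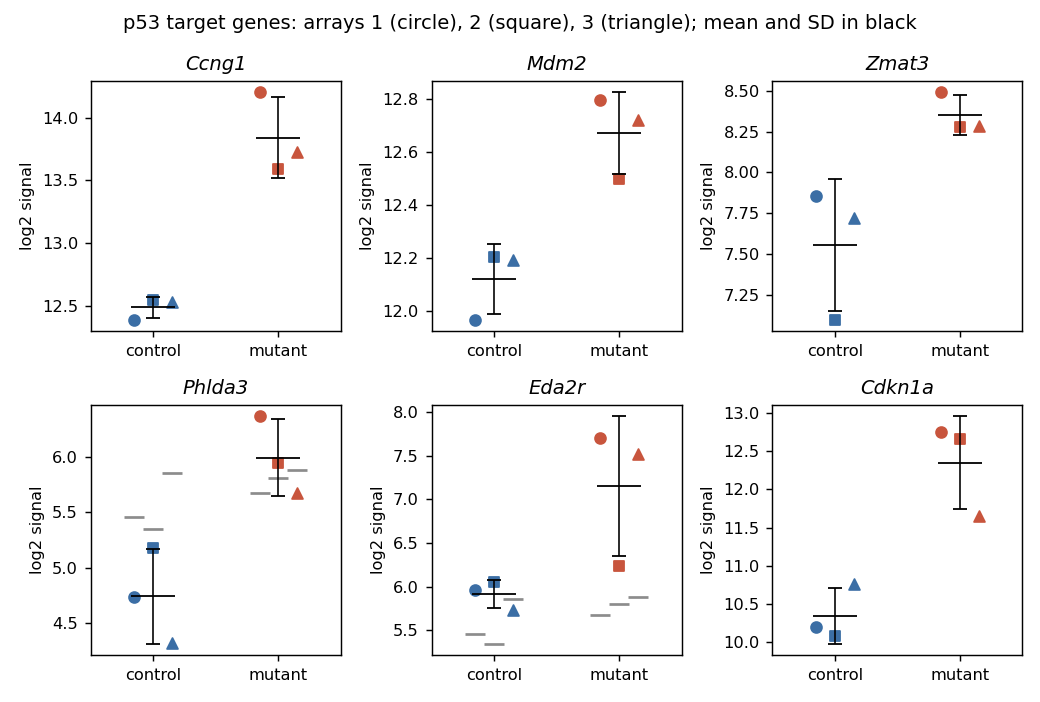
Log2 signal (y axis) of 6 p53 target genes on the control (blue) and mutant (red) arrays, with the mean and SD of each group in black and, in the Phlda3 and Eda2r panels, the background level of each array as grey dashes. Ccng1 runs from 12.39 to 12.55 in control and from 13.59 to 14.20 in mutant ducts, while Phlda3 stays near background; each panel has its own y range.

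The other targets of growth arrest and stress were more mixed. Zmat3, which encodes an RNA-binding zinc finger protein, was at 7.85, 7.10 and 7.72 in control and at 8.49, 8.28 and 8.28 in mutant ducts. Its groups did not overlap, and its log2 difference of 0.79 ± 0.22 had a limma adjusted p of 0.103. In a limma fit restricted to the 11103 clusters at or above the median signal, where 924 passed, the adjusted p was 0.0497.

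The sestrins, stress proteins that restrain mTORC1 and limit oxidative damage, pointed in different directions. Sesn1 was at 10.32, 10.41 and 10.33 in control and at 9.90, 9.68 and 10.11 in mutant ducts, each mutant array lower. The difference was -0.46 ± 0.17 (limma adjusted p = 0.236). Sesn2 was below background on all 6 arrays, with means of 3.57 ± 0.23 in control and 4.05 ± 0.08 in mutant ducts (SD, n = 3, limma adjusted p = 0.232). Its groups did not overlap, but a difference between signals below background has little precision.

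Trp53inp1, a p53-induced nuclear protein of the stress response, overlapped between groups, with means of 9.25 ± 0.35 in control and 9.54 ± 0.25 in mutant ducts (SD, n = 3). Aen, an apoptosis-enhancing nuclease, overlapped as well, at 6.52 ± 0.27 and 6.91 ± 0.25, and lay under the negative-control median on 5 arrays. Their 95% intervals ran from -0.21 to 0.79 and from -0.06 to 0.85.

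Among the surface proteins that p53 induces, Eda2r, a TNF receptor family member that binds ectodysplasin A2, varied most between mutant embryos. It was at 5.96, 6.05 and 5.73 in control ducts, near background, and at 7.70, 6.23 and 7.52 in mutant ducts. On 4 arrays it lay under the negative-control median. Mutant 1 and mutant 3 stood well above every control array, and mutant 2 was only just above them. The log2 difference was 1.24 ± 0.34, with an interval from 0.46 to 2.01 and a limma adjusted p of 0.106. Without mutant 2 it was 1.70 and passed (adjusted p = 0.00459). Amhr2 was also least reduced in mutant 2, at 7.52 against 6.92 and 6.54, and a link between both was not tested.

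Fas, the death receptor bound by Fas ligand, was at 4.73, 5.39 and 4.11 in control and at 6.03, 4.76 and 5.18 in mutant ducts. It was below background on 2 arrays of each group, and the groups overlapped (limma adjusted p = 0.528). Perp, a tetraspan protein of desmosomes that both p53 and p63 induce, was at 6.43 and 6.53 in control 1 and control 2 and at 8.31 in control 3. The mutant arrays were at 8.21, 7.41 and 7.70, above control 1 and control 2 and below control 3. Over all arrays the difference was 0.68 ± 0.46 (limma adjusted p = 0.543), and without control 3 it was 1.29 and passed (adjusted p = 0.0287).

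Control 3 was also the array with urothelial transcripts. The mean of 6 urothelial markers was 11.84 there, between 6.86 and 7.23 on the other control arrays and between 7.17 and 7.20 on the mutant arrays. Trp63, which encodes p63, was at 7.88 in control 3 and at most 4.34 on the other 5 arrays. The part of urothelial tissue in the Perp signal was not tested.

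**Figure D3:**
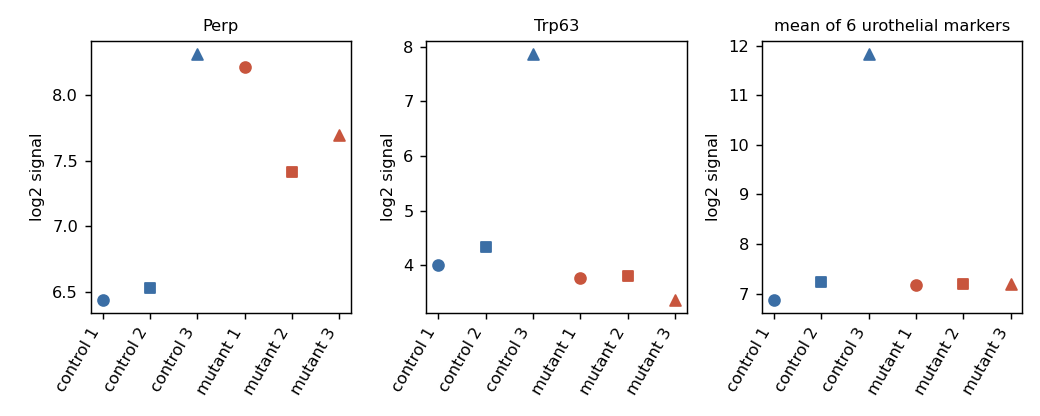
Log2 signal (y axis) on each of the 6 arrays (x axis) for Perp, for Trp63 and as the mean of 6 urothelial markers, with control arrays in blue and mutant arrays in red. Control 3 is the highest array in all 3 panels, at 8.31, 7.88 and 11.84, and Perp alone is also high on the mutant arrays; the y ranges differ.

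Pro-survival members of the BCL2 family did not move as 1 group. Bcl2, the founding member, was at 12.29, 12.43 and 11.88 in control and at 11.72, 11.91 and 11.42 in mutant ducts. Mutant 2 was just above control 3, so the groups touched. Bcl2l1, which encodes BCL-XL, had the opposite sign, at 10.37, 9.71 and 10.24 in control and at 10.59, 10.78 and 10.72 in mutant ducts, with no overlap. The differences were -0.51 ± 0.21 and 0.59 ± 0.20, and neither passed (limma adjusted p = 0.273 and 0.189). Mcl1, a short-lived pro-survival protein, and Bcl2l2, which encodes BCL-W, overlapped between groups, with intervals from -0.25 to 0.56 and from -0.40 to 0.43. The signal of a probe set is not comparable between genes, so the balance of the family was not computed.

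Bak1 was the measured effector of membrane opening. It lay between 8.63 and 8.90 in control and between 8.84 and 9.15 in mutant ducts, and the 95% interval of its difference ran from -0.12 to 0.64.

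None of the 8 BH3-only genes passed or had an unadjusted limma p under 0.05, where 3.26% and 15.3% of all clusters did. At such shares, a count of 0 among 8 genes says little about the group. Of the 8, 6 lay under the negative-control median on every array. Bbc3 (PUMA) and Pmaip1 (NOXA), which p53 induces directly, were below background on every array. Bbc3 was between 5.06 and 5.43 over all 6 arrays and Pmaip1 between 4.05 and 4.31. Bid, which caspase 8 cleaves to link death receptors to mitochondria, was below background on every array too, at 4.89 to 5.22 in control and 4.67 to 4.87 in mutant ducts.

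Bmf and Bcl2l11 lay above the negative-control median on every array. Bmf, a sensor tied to the cytoskeleton, had means of 8.74 ± 0.25 and 8.58 ± 0.14 in control and mutant ducts (SD, n = 3). Bcl2l11, which encodes BIM, was at 8.91, 8.53 and 8.61 and at 8.32, 8.67 and 9.33, with mutant 1 the lowest and mutant 3 the highest of the 6. Bad, Bik and Hrk had differences of -0.22, 0.28 and 0.24, each with groups that overlapped and all values under the negative-control median. As a group the 8 had a median log2 difference of 0.02, ranging from -0.25 to 0.28.

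**Figure D4:**
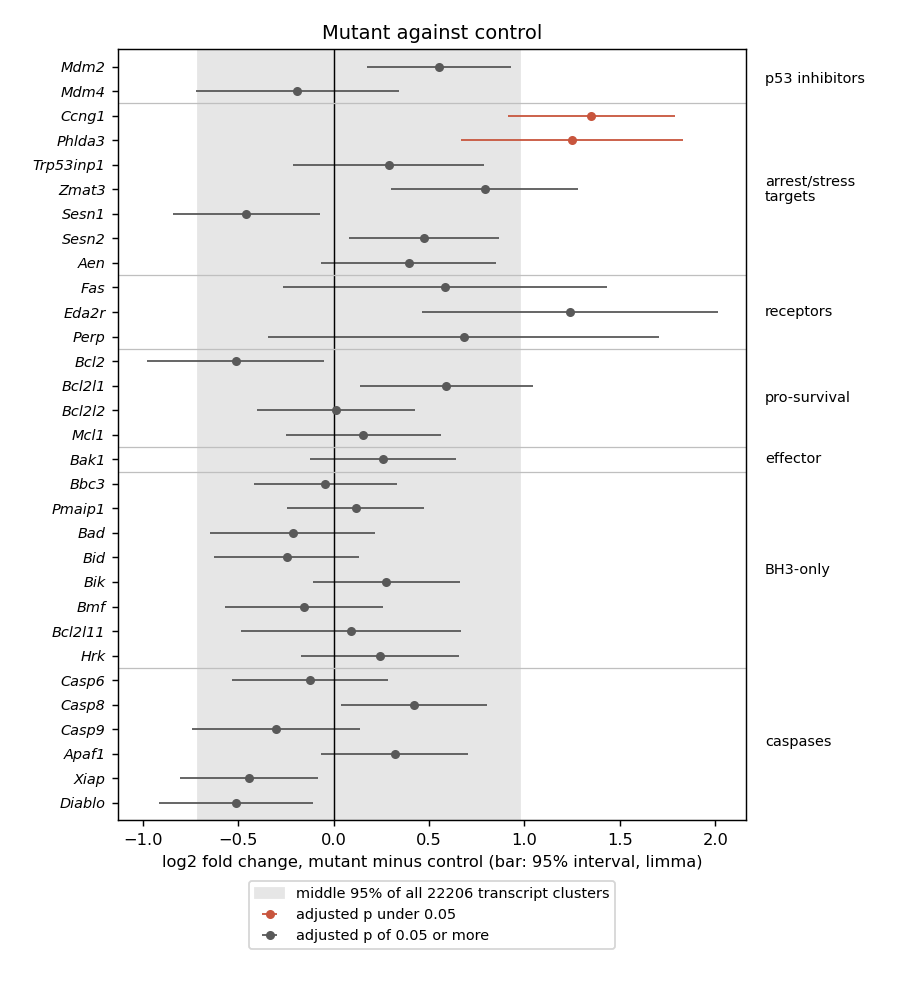
Log2 fold change of each member, mutant minus control (x axis), with its limma 95% interval, and genes on the y axis ordered by role. Grey shading spans the middle 95% of all 22206 transcript clusters, from -0.71 to 0.98. Ccng1 and Phlda3 (red) passed the adjusted threshold, and the intervals of all 8 BH3-only genes include 0.

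Among the caspases, the apoptosome and their inhibitors both signs occurred, and no member passed. Casp8, the initiator caspase of death receptors, was at 14.18, 14.58 and 14.36 in control and at 14.77, 14.73 and 14.89 in mutant ducts. No mutant array fell into the control range, and the difference was 0.42 ± 0.17 (limma adjusted p = 0.276). Apaf1, the scaffold of the apoptosome, was at 10.43, 9.99 and 10.18 and at 10.51, 10.51 and 10.54. The mutant arrays were close together (SD 0.02) and just above control 1 (difference 0.32 ± 0.17, limma adjusted p = 0.429).

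Xiap, which inhibits caspases, and Diablo (SMAC), which releases them from that inhibition, both had lower signals in mutant ducts. Xiap was at 12.12, 12.20 and 12.06 in control and at 11.69, 11.54 and 11.83 in mutant ducts, and Diablo at 10.33, 10.53 and 10.74 and at 9.98, 9.89 and 10.20. Neither gene overlapped between groups. Their differences were -0.44 ± 0.16 and -0.51 ± 0.18, with limma adjusted p of 0.221 and 0.203. Casp9, the apoptosome's caspase, and Casp6, an executioner, overlapped between groups, with differences of -0.30 ± 0.20 and -0.13 ± 0.18. All Casp9 values lay under the negative-control median, while all Casp6 values lay above it.

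Other genes of the pathway were read from 5 further lists. Of all clusters, 3.26% passed and 15.3% had an unadjusted limma p under 0.05. Of 27 other p53 targets measured, 1 rose and none fell, or 3.70%, with a median log2 difference of 0.12. This was Cdkn1a, the p21 inhibitor of cyclin-dependent kinases, at 10.20, 10.08 and 10.76 in control and 12.75, 12.66 and 11.65 in mutant ducts. Its rise of 2.00 ± 0.31 (limma adjusted p = 0.00796) passed with any 1 of the 6 arrays omitted. Of the 27, 6 (22.2%) had an unadjusted limma p under 0.05. In this list 2 passed without control 3 or without mutant 3, the second being Ak1 and Ephx1 in turn. Of 22 p53 regulators and damage signalling genes none passed, 3 (13.6%) had an unadjusted limma p under 0.05, and the median was -0.04. The smallest p there was that of Cdkn2a, the locus of p16 and ARF, with a difference of 1.21 ± 0.28 (limma adjusted p = 0.0504) between signals below background in both groups. It passed without mutant 2 (adjusted p = 0.0179).

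Of 11 other BCL2 family genes 4 rose and none fell, or 36.4%, while the median of the list was 0.04. Bnip3, a mitophagy receptor that hypoxia induces, rose by 1.96 ± 0.32 (limma adjusted p = 0.0108), from 8.37, 9.84 and 9.29 to 11.05, 11.21 and 11.12. The others were Bcl2a1a, Bcl2a1b and Bcl2a1d, near-identical copies of a pro-survival gene of blood cells, which rose by 1.30, 1.09 and 1.22 (limma adjusted p of 0.0238, 0.0182 and 0.00617). Probes may not tell these copies apart, so they may stand for 1 signal. Bcl2a1b and Bcl2a1d were below background on every control array. Macrophage markers moved with them. Of 13 such markers 9 rose, none was below background in both groups, and their mean level was between 8.81 and 8.83 in control and between 9.83 and 10.24 in mutant ducts. The part of macrophages in the Bcl2a1 signal was not tested. The list held 2 calls without control 2, mutant 1 or mutant 3.

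None of 17 other genes of caspases, inhibitors of apoptosis and the cytochrome c pathway passed in limma. Of these, 4 (23.5%) had an unadjusted limma p under 0.05, where 15.3% of all clusters did. The smallest p was that of Septin4, a septin whose ARTS isoform antagonises XIAP, with 1.01 ± 0.25 (adjusted p = 0.0670). None of 14 death receptor pathway genes passed, with 4 (28.6%) at an unadjusted limma p under 0.05. Tnfrsf1a, the main TNF receptor, was at 12.04, 11.41 and 11.85 in control and 12.66, 12.75 and 12.49 in mutant ducts, a difference of 0.87 ± 0.20 (adjusted p = 0.0530). The medians of these lists were 0.17 and -0.01, and 1 gene of each passed without control 3, Septin4 and Ngfr.

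**Figure D5:**
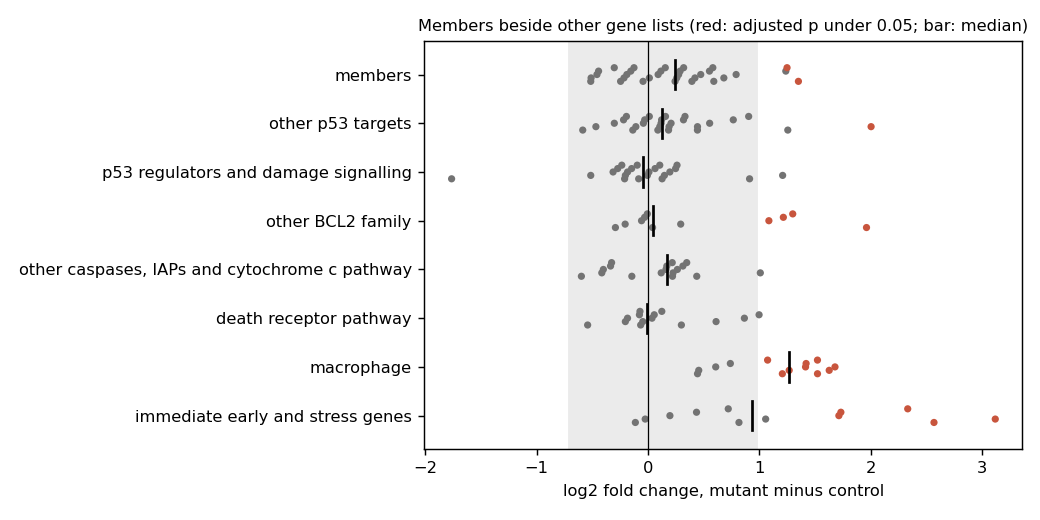
Log2 fold change, mutant minus control (x axis), of each gene in the members, 5 other pathway lists and 2 further lists (y axis), with the median as a black bar, adjusted p under 0.05 in red and the middle 95% of all clusters shaded. Medians of the pathway lists lie near 0, from -0.04 to 0.24, while that of macrophage markers is 1.27 and that of immediate early and stress genes 0.94.

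Stress and growth lists were read beside the p53 targets. Of 12 immediate early and stress genes 5 rose and none fell, with a mean level between 8.14 and 8.69 in control and between 9.53 and 9.59 in mutant ducts, and 1 was below background in both groups. The smallest p were those of Ier3, Fos, Hspa1a and Hspa1b, which rose by 3.12, 1.71, 2.33 and 2.57 (limma adjusted p of 0.000389, 0.00449, 0.00640 and 0.0163). Fos encodes a subunit of the AP-1 transcription factor, and the Hspa1 pair encodes near-identical heat shock proteins that probes may not tell apart. Hspa1b did not pass without control 1, control 2 or mutant 1. The count was 3 without control 2 or without mutant 1 and 7 without control 3. Of 12 integrated stress response genes, a programme that also induces Sesn2, 2 rose, Nupr1 by 1.43 ± 0.19 and Asns by 1.02 ± 0.18 (limma adjusted p of 0.00343 and 0.0162). Without control 1, control 2, mutant 2 or mutant 3, Nupr1 passed and Asns did not. Atf4 and Ddit3, central factors of that programme, had differences of 0.37 and -0.10 and did not pass. None of 11 proliferation genes passed in limma. Of these, 2 (18.2%, beside 15.3% of all clusters) had an unadjusted limma p under 0.05, both lower in mutant ducts. Mcm5, a replicative helicase subunit, had the smaller p of the 2, with -0.60 ± 0.17 (limma adjusted p = 0.116). The part of handling or of other stress in the p53 target signals was not tested.

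The count of called members depended on single arrays. It was 1 without control 1 or without mutant 1, where Ccng1 alone passed, and 2 without each of the other arrays. In these last fits the second gene was not always Phlda3, since Perp passed without control 3 and Eda2r without mutant 2. Mutant 1 was the highest mutant array for 9 of 13 p53 target members (69.2%) and 15 of all 31 members (48.4%). Over all clusters that share was 29.2%. The 13 were Mdm2, the measured targets of growth arrest and stress, the surface proteins Fas, Eda2r and Perp, and Bbc3 and Pmaip1. Among them Sesn2, Bbc3 and Pmaip1 were below background on every array. The shares describe the arrays and were not tested, nor was their cause.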

How the data were processed

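The authors deposited 1 table of log2 signals from Affymetrix arrays, a column per array, made with Transcriptome Analysis Console 4.0 per the submitters' processing notes. How probes were summarised and arrays normalized, and the build, are not stated in these sources. The values were used as deposited, since their medians were nearly equal. All 22206 transcript clusters were fitted across genes with lmFit and eBayes of limma 3.58.1 (R 4.3.3), genotype as the only term, two-sided, Benjamini-Hochberg adjusted over all clusters, with a threshold of 0.05. The 6640 control rows were left out. Gene symbols came from the platform's table (19572 clusters with 1 symbol), and a gene with several rows used the brightest. The members and lists were chosen with earlier results of these data known. All members are named, and of other pathway lists the called genes, at most 4, or the smallest p. Background was each array's median antigenomic probe. The number of arrays limits precision. Simulated data had 22206 rows with independent normal noise, of which 200 were changed. There, 40% of log2 changes of 1 and 93% of log2 changes of 2 were recovered, with 5 false calls. Recovery depends on the share of changed rows, which is unknown in the real data, so these figures are not its sensitivity. Same-numbered arrays did not deviate together, so no pairing was used. Figures used matplotlib 3.10.9.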

Additional observations from a re-analysis of the deposited data

How the results depend on the processing

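Besides the threshold, the alternatives were quantile normalization, a common median, filters on dim rows, a trended robust prior, array weights, the mean of a gene's rows, the replicate number and each array left out. The 2 called members and the 4 called other BCL2 family genes were the same in number except as given here. At a threshold of 0.01, 1 member, 299 clusters and 1 other BCL2 family gene passed, and without rows under the median signal 1 such gene of the 3 left. That filter left 19 members without Phlda3, and its 2 calls were Ccng1 and Zmat3. It called 924 of 11103 clusters, a larger share than in the main fit. The filter at the 25th percentile called 824 of 16654 clusters, also a larger share, and 2 of 29 members. Other p53 targets gave 2 calls with quantile normalization, a common median, either filter or the trended prior, and 3 with array weights. The regulators gave 1 with a common median, the trended prior or array weights, the caspase list 1 with the median filter, the trended prior or array weights, and the death receptor list 1 with a common median, either filter, the trended prior or array weights.

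With the replicate block the fit called 2 members, 633 clusters and 2 regulators. Correlations of the deviations of same-numbered arrays were 0.01, 0.04 and -0.003.

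With 1 array left out the counts ran from 1 to 2 for members, 360 to 697 for clusters (384 without control 1, 454 without control 2, 360 without mutant 1), 1 to 2 for other p53 targets, 0 to 1 for regulators, 2 to 4 for other BCL2 family genes, 0 to 1 for the caspase list and 0 to 1 for the death receptor list. Signs turned for Bcl2l11 (-0.059 with array weights, -0.19 to 0.32 with an array left out), Bcl2l2 (-0.11 to 0.16) and Bbc3 (-0.15 to 0.031), none of them called. The cause of these shifts was not tested. Signals below background limit Phlda3, Fas, Sesn2, Bbc3, Pmaip1 and Bid most.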
